A study of Mus musculus with 17 samples.

Results

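The genes described here are the heat shock proteins and ER chaperones of mouse liver, measured in Afp knockout mice. A gene was a member if its symbol on the array began with Hsp followed by a, b, d, e, h or 9, with Dnaja, Dnajb or Dnajc, with Cct and a digit, or with Pdia and a digit, or if it was Calr, Canx or Hyou1. This gave 64 of 9030 named genes, on 104 of 20794 probes. Of the members, 14 act in the endoplasmic reticulum (ER), 10 in mitochondria and 40 in the cytosol, where the last class also takes in nuclear and vesicle-bound proteins. By family they were 33 J proteins, 9 CCT proteins, 7 HSP70 proteins, 5 small heat shock proteins, 3 HSP110 proteins, 2 HSP90 proteins, the mitochondrial pair Hspd1 and Hspe1, 2 lectin chaperones and 1 protein disulfide isomerase. Hspa8 and Hsp90ab1, the HSP70 and HSP90 proteins that most cells make at all times, matched no probe and are not analysed here.

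Chaperones bind unfolded protein chains and help them to fold. HSP70 proteins do so in cycles driven by ATP, J proteins deliver the chains to them and start the cycle, and HSP90 and the ring-shaped chaperonins take over some of the chains. The cytosolic set is induced by heat and other damage through heat shock factors, and the ER set by the unfolded protein response. Hepatocytes secrete most of the proteins of blood plasma and depend on the ER set to fold them, and Afp encodes alpha-fetoprotein, the main plasma protein of the fetus.

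The adult mutants were 6 male Afp knockout mice aged 17 weeks, each set against 1 pool of liver RNA from 6 wild-type males of the same age. The fetal mutants were 6 Afp knockout embryos, 3 female and 3 male, each set against a pool from 4 wild-type animals that the labels call male on 2 arrays and female on 4. The labels give embryonic day 7.5 for this fetal liver, a stage at which a mouse embryo has no liver yet, so the true stage or tissue of these samples is uncertain. They name neither strain nor allele nor zygosity. Of the 11 adult arrays, 6 carried the mutant in the red dye Cy5 and 5 carried the same animals, other than animal 5, with the mutant in the green dye Cy3. All 6 fetal arrays carried the mutant in Cy5. The question asked of these genes was whether their transcripts differ between Afp mutant and wild-type liver, at each age.

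All values are log2 ratios of mutant over wild-type pool, so -1 is 2-fold lower in the mutant. Each array held 20078 to 20697 values. Afp averaged -0.025 ± 0.19 in the adults (SD, n = 6), at an age when liver makes little of it, and -8.40 ± 0.23 in the embryos (SD, n = 6). Which way the Cy3 arrays run is likely but not stated by the labels, and the fetal values were read 11 rows further down the deposited table than the names stand. That reading was used for probes up to 20000. The probes of Hspa1b and Hyou1 lie past it and so had no fetal value, and Dnajc15 was measured in only 3 embryos. Wild-type liver was hybridised as a pool throughout, so a test of a ratio against 0 leaves out how far wild types differ among themselves, and precision is limited by the 6 mutants per age. Ratios hold no levels, so neither the order of the genes by abundance nor the presence of a cell type could be read from them.

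In adult liver, 0 of the 64 members passed limma's test at a Benjamini-Hochberg adjusted p under 0.05, nor did any of all 17039 features tested (0%). Their means nonetheless lay more often below 0 than above, 44 below and 20 above, against 48.2% of all features below and 51.8% above. The median over members was -0.057, against 0.008 over all features. This lean depends on the direction of the Cy3 arrays, since with their sign turned 34 members were below 0 and 30 above, with a median of -0.014 against -0.092 over all features. On the Cy5 arrays alone 40 were below 0 and 24 above, with a median of -0.058 against -0.065 over all features. On the Cy3 arrays alone, with 62 members tested, 40 were below 0 and 22 above, with a median of -0.12 against 0.079 over all features. The lean relative to all features was thus seen on the Cy3 arrays and not on the Cy5 arrays. At an unadjusted p under 0.05 there were 6 members on the lower side and 0 on the higher side, where 4.37% and 3.38% of all features stood. The 6 were the J proteins Dnaja1 and Dnajb1, the small heat shock protein Hspb2, the lectin chaperone Canx, the ER HSP70 protein Hspa5 and the mitochondrial co-chaperonin Hspe1, and their adjusted p was 0.64 each. Only Dnaja1 and Hsp90aa1 had the same sign in all 6 animals, both below 0, where 2.89% of features were below 0 in every animal measured and 3.44% above.

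**Figure D1:**
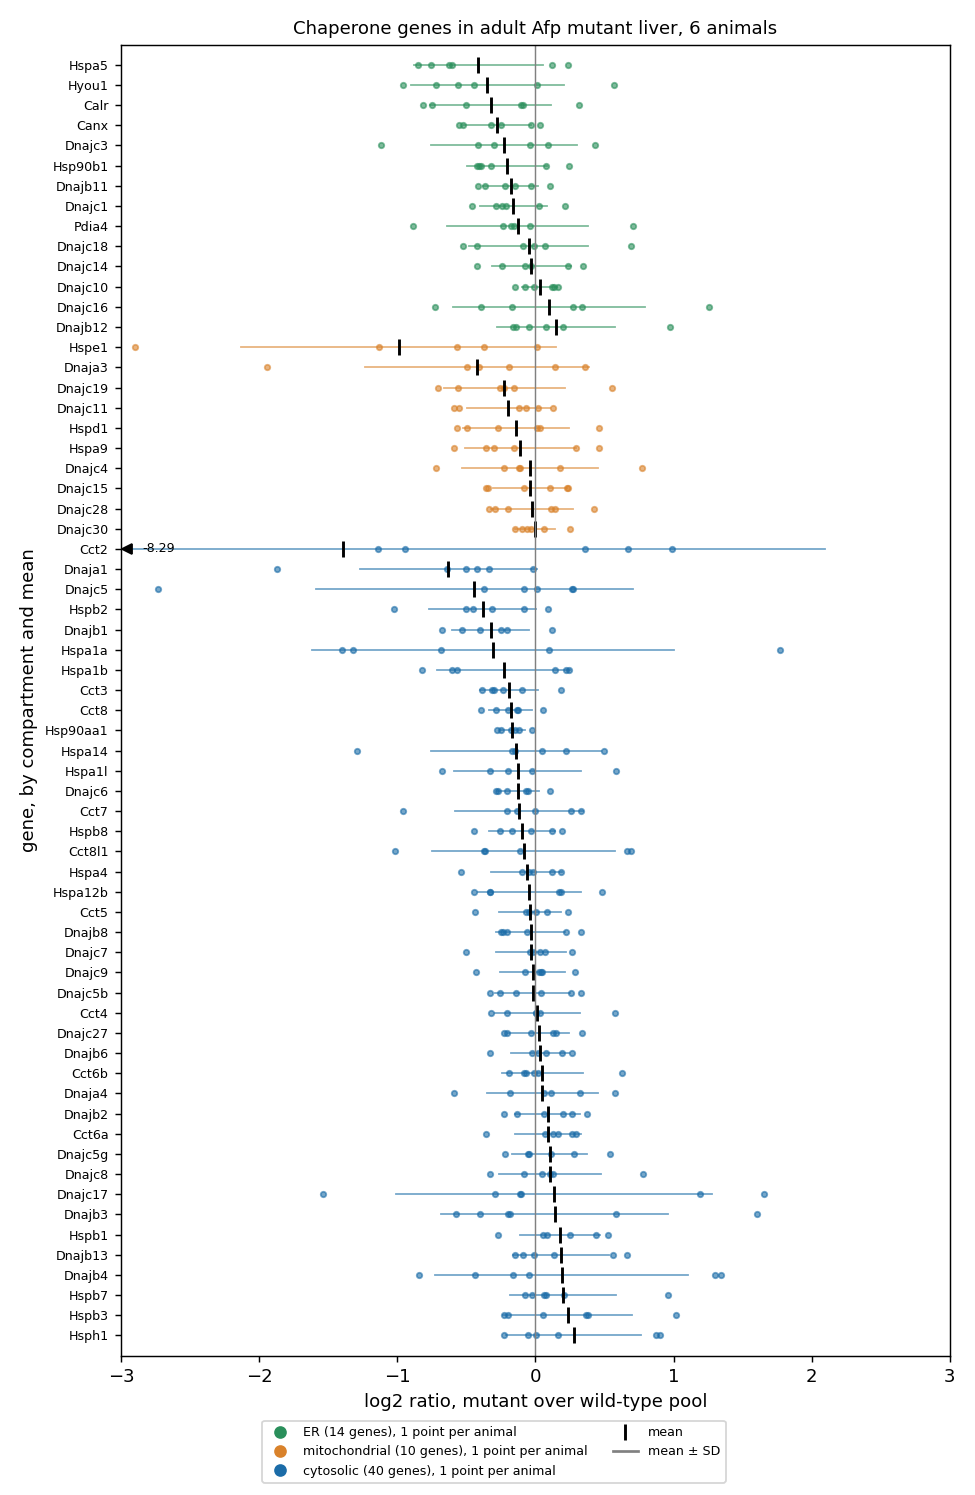
Log2 ratio of mutant over wild-type pool (x axis) for each of the 64 members (rows) in 6 adult Afp mutants, 1 point per animal, with the mean as a black tick and mean ± SD as a line. Of the 64 means, 44 lie left of 0, among them all 10 mitochondrial and 11 of the 14 ER genes, and the arrow marks the value of Cct2 in animal 2 at -8.29, outside the axis.

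Of the 14 ER members 11 had a mean below 0, and their median was -0.17. It was -0.14 with the Cy3 arrays turned in sign, -0.21 on the Cy5 arrays alone and -0.21 on the Cy3 arrays alone. The ones that are no J proteins were all below 0. Hspa5, known as BiP, is the HSP70 protein of the ER and the sensor-binding chaperone of the unfolded protein response, and it averaged -0.41 ± 0.47 (SD, n = 6, limma's unadjusted p = 0.046). In animals 1 to 6 it stood at 0.24, -0.63, -0.61, -0.85, -0.76 and 0.12. The values of animals 2 to 5 were thus well below 0 and those of animals 1 and 6 slightly above. Hyou1, the HSP110 protein of the ER that recharges Hspa5 with nucleotide, averaged -0.35 ± 0.55 and read 0.57, -0.44, -0.56, -0.96, -0.72 and 0.008 in the same order. Calr, or calreticulin, which holds glycoproteins in the ER until they are folded, averaged -0.32 ± 0.44 and read 0.32, -0.11, -0.51, -0.75, -0.81 and -0.091. Both were lowest in animals 4 and 5 and highest in animal 1, as Hspa5 was. Canx, or calnexin, the membrane-bound partner of calreticulin, averaged -0.28 ± 0.24 (unadjusted p = 0.042) and read -0.035, 0.030, -0.53, -0.55, -0.25 and -0.32. Its 3 probes averaged -0.49, -0.32 and -0.019. Hsp90b1, the HSP90 protein of the ER, averaged -0.21 ± 0.29 and read 0.25, 0.074, -0.41, -0.39, -0.43 and -0.32. Pdia4, a disulfide isomerase and the only gene on the array named with the Pdia prefix, averaged -0.13 ± 0.51, with 0.71 in animal 1, -0.89 in animal 5 and values of -0.23 to -0.041 in the others.

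Taken per animal, the median of these 6 ER genes was 0.28, -0.13, -0.52, -0.65, -0.74 and -0.066 in animals 1 to 6, and all 6 genes were below 0 in animals 3, 4 and 5. In animals 3 and 4 this held in both dye orientations, with medians of -0.59 and -1.01 where the mutant was in Cy5 and of -0.28 and -0.32 where it was in Cy3. In animal 1 the medians were 0.63 in Cy5 and -0.005 in Cy3, in animal 2 they were -0.32 and 0.025, and in animal 6 they were -0.22 and 0.024. In each of these 5 animals the median thus lay farther from 0 on the Cy5 array than on the Cy3 array. Animal 5 was measured in Cy5 alone. Transcripts that mark hepatocytes, 12 of a list of 16 on the array, differed between the animals as well, with medians of 0.42, 0.003, -0.71, -0.79, -0.23 and -0.76 in animals 1 to 6. Of these 12, 11 had an adult mean below 0, and Alb, encoding serum albumin, was lowest at -0.59 ± 0.57, below 0 in all 6 animals. Animals 3 and 4 were low in both lists and animal 1 was high in both, while animal 6 was low in hepatocyte markers but near 0 in the ER genes. Animal 5 was the lowest in the ER genes, at -0.74, but stood at only -0.23 in the markers. The part of the markers in the ER values was not tested. In whole tissue, fewer cells of a type and less RNA per cell cannot be told apart.

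**Figure D2:**
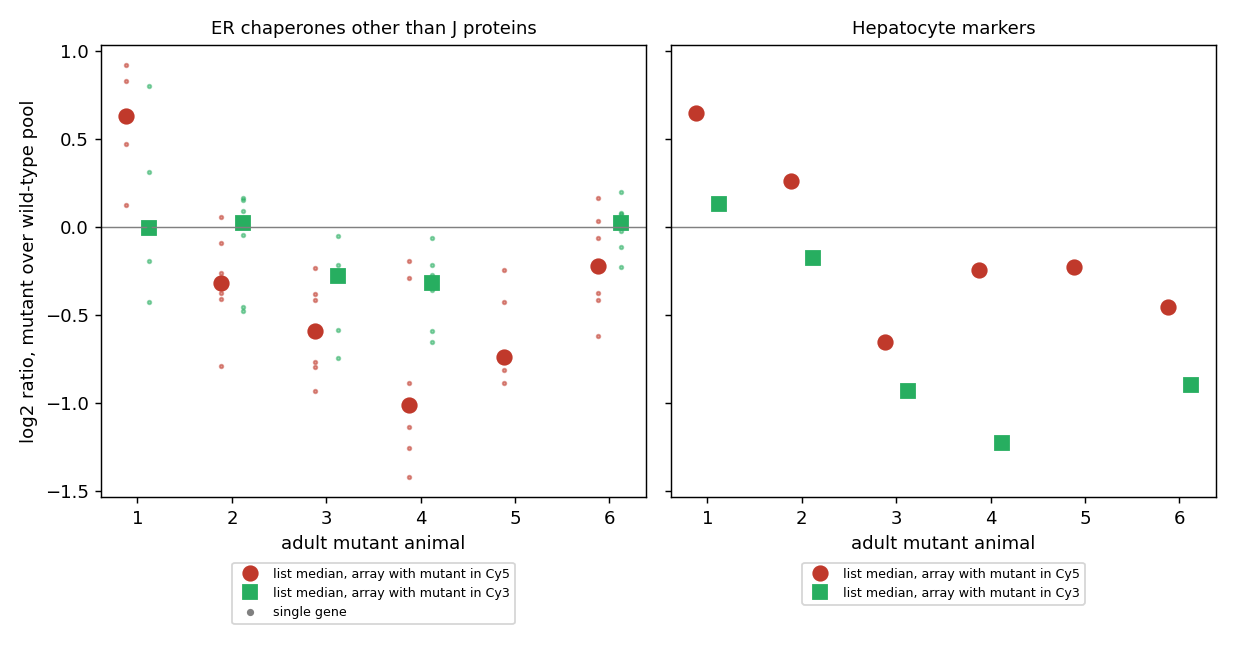
Log2 ratio of mutant over wild-type pool (y axis) by adult animal (x axis), for Hspa5, Hyou1, Calr, Canx, Hsp90b1 and Pdia4 (left) and for the medians of 12 hepatocyte markers (right). Large symbols are list medians of 1 array, red circles with the mutant in Cy5 and green squares with the mutant in Cy3, and small points on the left are single genes. Animals 3 and 4 are below 0 in both orientations in both panels.

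The ER stress element, the promoter sequence through which ATF6 acts in the unfolded protein response, was searched in the promoters of RefSeq (assembly GRCm38.p6, 250 bases before to 50 after each start), which held 54 of the 64 members. Its letters, CCAAT and CCACG with 9 bases of any kind between them, on either strand, were found in 5 of the 54, all of them ER genes, and in 0.178% of the 7299 genes on the array with a promoter in the table. Hyou1, an ER gene with an adult mean of -0.35, was not among these 5. The sequences of the matches are shown with the element in capitals and 10 bases on either side, read along the gene's strand.
Hspa5: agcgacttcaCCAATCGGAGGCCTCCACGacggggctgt
Hsp90b1, upstream match: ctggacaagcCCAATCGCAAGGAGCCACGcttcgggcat
Hsp90b1, downstream match: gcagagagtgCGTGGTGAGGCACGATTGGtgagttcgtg
Calr: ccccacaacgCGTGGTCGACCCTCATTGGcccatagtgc
Canx: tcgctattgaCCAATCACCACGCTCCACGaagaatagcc
Dnajc3: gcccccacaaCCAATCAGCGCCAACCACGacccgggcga
The element of Hspa5 lies at chr2:34772015-34772053 on the plus strand with its flanks, between 65 and 47 bases before the start. Those of Hsp90b1 are at chr10:86705628-86705666 and chr10:86705523-86705561 on the minus strand, that of Calr is at chr8:84847065-84847103 on the minus strand, that of Canx at chr11:50325790-50325828 on the minus strand and that of Dnajc3 at chr14:118937817-118937855 on the plus strand. In Calr and in the downstream match of Hsp90b1 the letters read on the opposite strand. The adult means of these 5 genes ran from -0.41 to -0.21 with a median of -0.28, against a median of -0.037 over the 49 matched members without the letters. ER genes are 12 of the 54 matched members, so most of those 49 are cytosolic or mitochondrial. The adult median of all 14 ER members was -0.17. This contrast does not separate the element from the compartment, and a part of the element was not tested. In the embryos the 5 genes with the element ran from -0.10 to 0.052. A match of letters is a description of the sequence and shows no binding.

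The 8 ER J proteins were more scattered. Their adult median was -0.040, with 5 below 0 and 3 above. Dnajc3, which inhibits the kinase PERK and lends Hspa5 a J domain, averaged -0.23 ± 0.53 and was the lowest of them, at -1.12 in animal 5 and 0.43 in animal 1. Dnajb11, the J protein that hands secreted chains to Hspa5, averaged -0.18 ± 0.20 and was below 0 in every animal other than animal 6, at 0.11. Dnajb12, which sits in the ER membrane, was the highest at 0.15 ± 0.43, with 0.97 in animal 5.

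The mitochondrial members all had adult means below 0, with a median of -0.12, but none had the same sign in every animal. With the Cy3 arrays turned in sign the median was -0.0019. Per animal the mitochondrial median lay below that of the ER members in animals 1, 2, 4 and 6 and above it in animals 3 and 5. Hspe1, the lid of the chaperonin Hspd1, averaged -0.99 ± 1.14 over the 5 animals with a value (unadjusted p = 0.047). It read -1.13 in animal 1, -2.90 in animal 2, 0.008 in animal 3, -0.37 in animal 4 and -0.57 in animal 6, where animals 1 to 3 rest on a single array each. Animal 2 thus set much of the mean and of its SD. Hspd1 itself, the mitochondrial HSP60 protein, averaged -0.14 ± 0.38 and read 0.46, 0.032, -0.57, -0.50, -0.27 and 0.0098 in animals 1 to 6. Hspa9, the mitochondrial HSP70 protein that pulls chains through the inner membrane, averaged -0.11 ± 0.40 and read 0.29, 0.46, -0.36, -0.59, -0.16 and -0.30. Both were below 0 in animals 3, 4 and 5 and above 0 in animals 1 and 2, as most of the ER genes were in animals 1 and 3 to 5. Their probes did not read alike, since the 2 of Hspd1 averaged -0.35 and 0.075 and the 4 of Hspa9 ran from -0.35 to 0.23. The remaining 7 mitochondrial means, all J proteins, ran from -0.42 for Dnaja3, which stood at -1.94 in animal 5, to -0.0032 for Dnajc30.

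Of the 40 cytosolic members, 23 lay below 0 and 17 above, with a median of -0.034. Dnaja1, an abundant partner of the cytosolic HSP70 proteins, averaged -0.63 ± 0.64 (unadjusted p = 0.024, the smallest among members) and read -0.021, -0.34, -0.64, -0.43, -1.87 and -0.50 in animals 1 to 6. It was below 0 in every animal, barely so in animal 1 and most in animal 5. Hsp90aa1, the stress-inducible HSP90 protein, averaged -0.17 ± 0.091 and read -0.025, -0.15, -0.28, -0.18, -0.12 and -0.25. Its 2 probes stood apart, since one averaged -0.50 ± 0.26 and was below 0 in all 6 animals while the other averaged 0.17 ± 0.18, so the gene mean has the same sign throughout without the probes having it. Dnajb1, the J protein most readily induced by heat, averaged -0.33 ± 0.28 and Hspb2, a small heat shock protein of muscle, averaged -0.38 ± 0.39, and both were below 0 in 5 of 6 animals. Hspa1a and Hspa1b, the heat-inducible HSP70 proteins, averaged -0.31 ± 1.31 (n = 5) and -0.23 ± 0.48, and since they are near-identical copies a cDNA probe may read both. Hsph1, a cytosolic HSP110 protein, had the highest adult mean, 0.28 ± 0.49, from 0.90 and 0.87 in animals 3 and 5 and -0.23 to 0.17 in the others.

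CCT is a ring of several different subunits that folds actin and tubulin. The 9 CCT proteins here are Cct2 to Cct5, Cct7 and Cct8, the alternative subunits Cct6a and Cct6b, and the related Cct8l1, while the subunit Tcp1 falls outside the name pattern. Of their adult means, 6 were below 0 and 3 above, with a median of -0.085. Cct2 had the lowest mean of all members, -1.39 ± 3.49, which came from a single spot, since its only probe read -16.835 on the Cy3 array of animal 2 and its animals ran from -1.14 to 0.99 otherwise. The same array gave -16.835 for 1 of the 3 probes of Dnajc5, a J protein of secretory vesicles, whose animal 2 stood at -2.73. With values beyond 10 in size left out, the members were 22 above and 42 below 0, with a median of -0.042.

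The adult values differed with the dye orientation. In 38 of the 64 members the means of the Cy5 arrays and of the Cy3 arrays had opposite signs, 22 were below 0 in both and 4 above 0 in both, these being Dnajb4, Hspb1, Hspb7 and Hsph1. The same counts over all features were not made, so these are not shown to be particular to the members. Dye swaps of 1 animal correlated at a median of -0.286. Dnajc16, an ER membrane J protein, was the clearest case of opposite signs, at 0.88 with the mutant in Cy5 and -1.08 with the mutant in Cy3. It was above 0 on all 6 Cy5 arrays, from 0.32 to 1.51, and below 0 on all 5 Cy3 arrays, from -2.09 to -0.52. The mean over both orientations was 0.096 ± 0.69. Dnajc4 stood at 0.60 in Cy5 and -0.97 in Cy3, Hspb8 at 0.41 and -0.76, and Dnajb1 the other way round at -0.73 and 0.20. On the Cy5 arrays alone Dnajc16 passed the test, with limma's adjusted p = 0.0338 at that setting and 0.00562 to 0.971 over 15 settings. It was the only 1 of 64 members to pass there, where 1106 of all 16896 features did. The ER genes that are no J proteins were below 0 in both orientations for Hspa5 (-0.54 and -0.19), Hyou1 (-0.33 and -0.30), Calr (-0.48 and -0.046), Canx (-0.42 and -0.11) and Hsp90b1 (-0.049 and -0.35), and split for Pdia4 (-0.20 and 0.11).

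**Figure D3:**
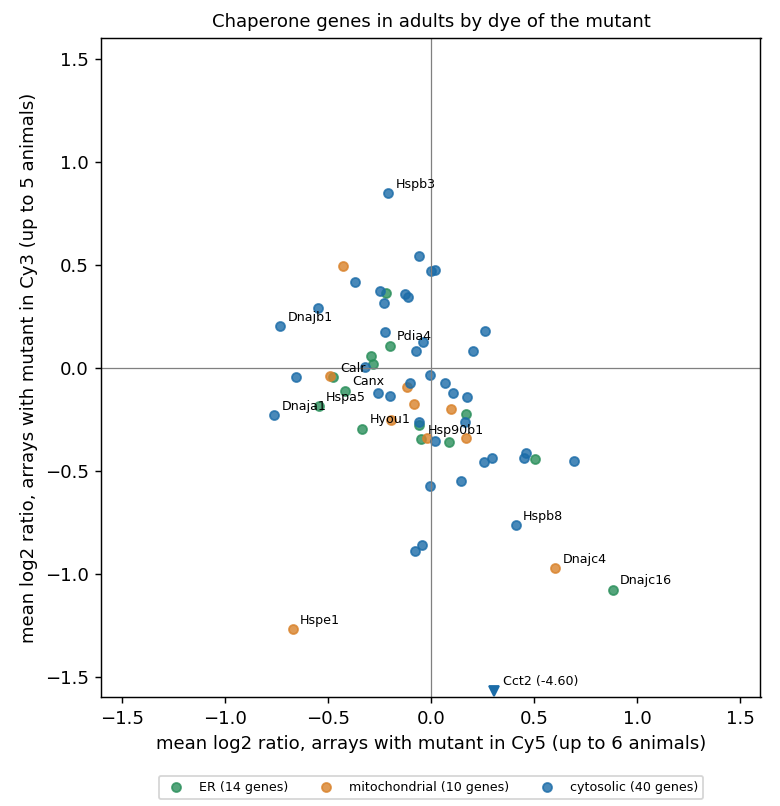
Mean log2 ratio of mutant over wild-type pool per member in adults, on arrays with the mutant in Cy5 (x axis, up to 6 animals) and in Cy3 (y axis, up to 5 animals), 1 point per gene, coloured by compartment. In 38 of 64 members the orientations have opposite signs, with Dnajc16 at 0.88 and -1.08, and the triangle marks Cct2, whose Cy3 mean of -4.60 lies outside the axis.

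The heat shock element, the site of the heat shock factors, was searched as GAANNTTC or TTCNNGAA, each of which is its own reverse complement, so that both strands were covered. Its letters stood in the promoters of 19 of the 54 matched members (35.2%) and in 14.1% of the genes on the array with a promoter in the table. By compartment they stood in 16 of 35 cytosolic, 2 of 7 mitochondrial and 1 of 12 ER members, so no member held both this element and the ER stress element. The longer forms, in which 3 units of GAA and TTC alternate at the same spacing and which contain the shorter ones, stood in 4 members (7.41%), namely Dnajb6, Hspd1, Hspe1 and Hsph1, and in 0.534% of those genes. Hspd1 and Hspe1 are transcribed away from each other from a shared stretch and so share these letters. Their longer forms overlap, at chr1:55088054-55088086 and at chr1:55088049-55088081, and only the latter is put in capitals. The first 2 lines give that stretch read along each gene, Hspe1 on the plus strand and Hspd1 on the minus strand, and the others show Dnaja1, below 0 in all 6 adults and above 0 in all 6 embryos, and the letters that Hspa1a and Hspa1b have in common, with the element in capitals.
Hspe1: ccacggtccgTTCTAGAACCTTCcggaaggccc
Hspd1: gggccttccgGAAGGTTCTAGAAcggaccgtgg
Dnaja1: aaagcctctaGAAAATTCtacgaggctc
Hspa1a: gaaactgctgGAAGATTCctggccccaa
Hspa1b: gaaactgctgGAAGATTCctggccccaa
The stretch of Dnaja1 is chr4:40722334-40722361 on the plus strand, and those of Hspa1a and Hspa1b are chr17:34972243-34972270 and chr17:34959325-34959352 on the minus strand. The 19 members with the shorter element had an adult median of 0.024, 10 above 0 and 9 below, against -0.065 over the 35 members without it, 9 above and 26 below. In the embryos the medians were 0.0078 over 18 members with the element and 0.034 over 35 without it. Since 16 of the 19 are cytosolic and 1 is an ER gene, these contrasts do not separate the element from the compartment. A part of the element was not tested.

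In the embryos, 61 members were tested and 0 passed limma's test, where 26 of all 17242 features did (0.151%). Of the 61, 34 had a mean above 0 and 27 below, where 51% and 49% of all features stood, with a median of 0.028 against 0.0046 over all features. At an unadjusted p under 0.05 there were 5 on the higher side and 2 on the lower side, where 10.9% and 9.88% of all features stood. All 6 embryos were above 0 for 6 members, where 8.27% of features were, and below 0 for 2, where 7.5% were. The counts on the higher side were near these shares, and those on the lower side were below them. The medians were 0.031 for the 13 ER members, 0.022 for the 9 mitochondrial members and 0.034 for the 39 cytosolic ones.

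**Figure D4:**
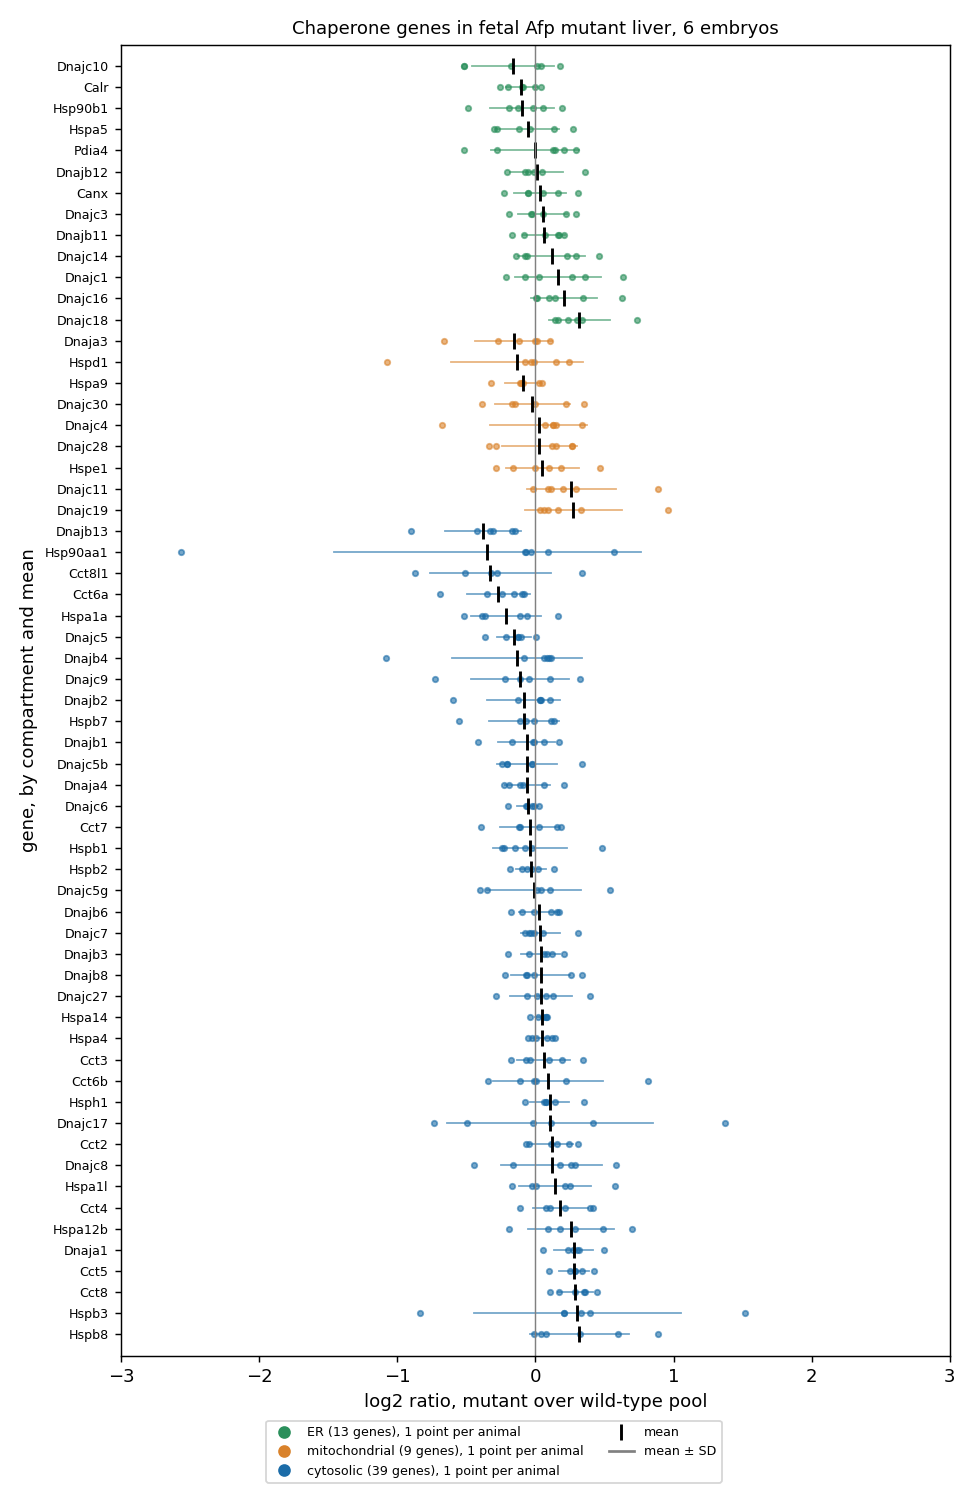
Log2 ratio of mutant over wild-type pool (x axis) for the 61 members tested in 6 Afp mutant embryos (rows), 1 point per embryo, with the mean as a black tick and mean ± SD as a line. The means lie between -0.38 and 0.32, and the value of Hsp90aa1 in embryo 6, at -2.56, stands farthest from the rest.

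Hspa5, Calr, Canx and Hsp90b1, which lay low in adults over both dyes, had means close to 0 in the embryos, all measured in Cy5. On the adult Cy5 arrays alone Hsp90b1 was close to 0 as well, and Hyou1 had no fetal value. Hspa5 averaged -0.055 ± 0.23 and read -0.30, -0.28, -0.041, 0.27, -0.12 and 0.14 in embryos 1 to 6. Calr averaged -0.10 ± 0.11 and read -0.001, -0.20, -0.26, -0.10, -0.093 and 0.043. Canx averaged 0.031 ± 0.19, with -0.23 in embryo 5 as the lowest and 0.31 in embryo 6 as the highest value. Hsp90b1 averaged -0.097 ± 0.23 and read -0.49, -0.13, 0.19, 0.051, -0.19 and -0.020. Each of these had embryos on both sides of 0. With the adult dye profile, described next, subtracted, Hspa5 stood at 0.10, Calr at 0.080, Canx at 0.20 and Hsp90b1 at -0.285. The J proteins of the ER membrane Dnajc18 and Dnajc16 were above 0 in all 6 embryos. Dnajc18 averaged 0.32 ± 0.22 (limma's adjusted p = 0.13) and read 0.34, 0.30, 0.74, 0.14, 0.24 and 0.16. Dnajc16 averaged 0.21 ± 0.24 (adjusted p = 0.28) and read 0.35, 0.014, 0.14, 0.10, 0.63 and 0.007. Since all fetal arrays had the mutant in Cy5, the dye and the genotype cannot be told apart in them, and the dye profile from the adult dye swaps, the Cy5 value minus the Cy3 value of an animal divided by 2 and averaged over animals, was 0.94 for Dnajc16 and 0.16 for Dnajc18. With that profile subtracted, Dnajc16 stood at -0.74 and Dnajc18 at 0.15.

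Among the mitochondrial members, Dnajc19, a J protein of the import motor at the inner membrane, was above 0 in all 6 embryos, at 0.33, 0.090, 0.96, 0.035, 0.065 and 0.16, with a mean of 0.27 ± 0.35 (adjusted p = 0.28). Hspd1 averaged -0.13 ± 0.48, with -1.08 in embryo 1 and -0.076 to 0.24 in the others. That low value came from 1 of its 2 probes, which read -2.29 in embryo 1 while the other read 0.14. Hspe1 averaged 0.050 ± 0.27 and read 0.19, -0.16, 0.47, -0.28, -0.004 and 0.10. Hspa9 averaged -0.093 ± 0.13 and read -0.32, -0.091, -0.11, 0.025, 0.047 and -0.10. None of these 3 leaned to one side in all embryos.

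In the cytosol, the CCT subunits Cct5 and Cct8 had the smallest adjusted p of all members in the embryos. Cct5 averaged 0.28 ± 0.11 (adjusted p = 0.097) and read 0.25, 0.43, 0.28, 0.34, 0.29 and 0.10, and Cct8 averaged 0.29 ± 0.13 (adjusted p = 0.10) and read 0.17, 0.45, 0.29, 0.35, 0.36 and 0.11. The 2 subunits thus read much alike from embryo to embryo. Their dye profiles were 0.40 and 0.39, larger than the fetal means, and with the profile subtracted they stood at -0.12 and -0.11. Another subunit, Cct6a, was below 0 in all embryos, with a mean of -0.27 ± 0.23 (adjusted p = 0.17), a dye profile of -0.25 and -0.022 after subtraction. Dnajb13, a J protein of cilia and sperm tails, had the lowest mean, -0.38 ± 0.28 (adjusted p = 0.12), and read -0.42, -0.31, -0.15, -0.33, -0.17 and -0.90. It too came closer to 0, at -0.091, with its dye profile of -0.29 subtracted.

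Dnaja1 did not come closer to 0 in this way. It averaged 0.28 ± 0.14 in the embryos (adjusted p = 0.11) and read 0.49, 0.27, 0.23, 0.32, 0.30 and 0.055, above 0 in all 6, whereas its dye profile was -0.15. With the profile subtracted it stood at 0.43. Hsp90aa1 averaged -0.35 ± 1.11, which rests on embryo 6 at -2.56, where 1 of its 2 probes read -5.23 and the other 0.10. The other 5 embryos ran from -0.074 to 0.57.

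The ages were compared on the Cy5 arrays alone, so that both ages had the same dye layout. Of 61 members 0 passed limma's test, where 23 of all 16314 features did (0.141%), and no member had all adults apart from all embryos, where 1.14% of features had all adults higher and 1.15% all adults lower. At an unadjusted p under 0.05 there were 4 members higher in adults and 7 lower, where 11% and 9.24% of all features stood. Of 61 members, 29 were higher in adults and 32 lower, where 47.7% and 52.3% of all features stood, with a median difference of -0.042 against -0.022 over all features. By compartment the median difference was -0.20 for ER, -0.28 for mitochondrial and 0.077 for cytosolic members.

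The lowest difference was that of Dnaja1, at -1.04 ± 0.27 (SE, limma's adjusted p = 0.080). It read 0.19, -0.38, -0.63, -0.81, -1.87 and -1.07 in adults 1 to 6 on the Cy5 arrays, against 0.055 to 0.49 in the 6 embryos. Only animal 1 among the adults overlapped with the embryos. Hspe1 followed at -0.72 ± 0.51 (adjusted p = 0.46) and Hspa1l, an HSP70 protein made mainly in the testis, at -0.69 ± 0.24 (adjusted p = 0.14). Hspa1l read -1.44 to 0.038 in 5 adults, against -0.17 to 0.57 in the embryos. The highest differences were Dnajc16 at 0.68 ± 0.21 (adjusted p = 0.11), Dnajc17, a J protein of the nucleus, at 0.59 ± 0.62 (adjusted p = 0.63) and Dnajc4 at 0.58 ± 0.20 (adjusted p = 0.14). Dnajc16 read 0.32 to 1.51 in adults, against 0.007 to 0.63 in embryos. With adult means over both orientations, however, Dnajc16 and Dnajc4 stood at -0.11 and -0.062. Of the ER chaperones, the difference was -0.49 ± 0.29 for Hspa5, -0.45 ± 0.18 for Canx and -0.37 ± 0.25 for Calr, with limma's adjusted p of 0.36, 0.20 and 0.42. Hsp90b1 did not share this direction, at 0.049 ± 0.22 (adjusted p = 0.92).

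**Figure D5:**
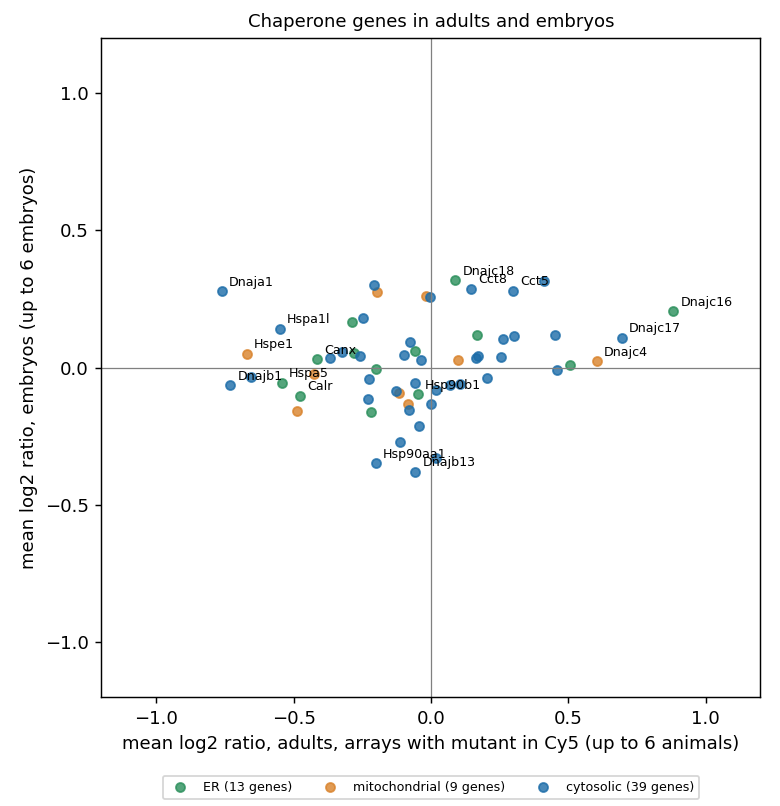
Mean log2 ratio of mutant over wild-type pool for the 61 members tested at both ages, in adults on arrays with the mutant in Cy5 (x axis, up to 6 animals) and in embryos (y axis, up to 6 embryos), 1 point per gene, coloured by compartment. Dnaja1 is the member farthest left, at -0.76 in adults and 0.28 in embryos, and Dnajc16 the one farthest right, at 0.88 and 0.21.

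The age comparison turned on adult animal 1. Without it, 6 members passed, Dnaja1 at -1.23 (adjusted p = 0.0146), Dnajb1 at -0.82 (0.0182), Dnajb12 at 0.70 (0.0194), Hspb2 at -0.79 (0.0249), Dnajc16 at 0.79 (0.0359) and Calr at -0.60 (0.0404), each p being limma's adjusted p at that setting. Over 19 settings the adjusted p of Dnaja1 ran from 0.0146 to 0.183, that of Dnajb1 from 0.0182 to 0.461, that of Hspb2 from 0.0249 to 0.375, that of Dnajb12 from 0.0194 to 0.772, that of Dnajc16 from 0.0359 to 0.887 and that of Calr from 0.0404 to 0.687. Without animal 1, 6 of 60 members passed, where 1224 of all 16136 features did, against 23 of 16314 with the animal. On its Cy5 array animal 1 was above 0 in 38 of 63 members, the most of any adult, and in all 12 hepatocyte markers. The markers moved with age as well, since 10 of 11 tested were lower in adults than in embryos, with a median difference of -0.43. Their part in the chaperone differences was not tested.

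Between the sexes of the embryos, 0 of 61 members passed limma's test, where 2 of all 17212 features did (0.0116%). The wild-type pool is labelled male for 2 of the 3 male embryos and female for the other male and for all 3 females, so embryo sex and pool label are partly tied. At an unadjusted p under 0.05 there was 1 member, on the higher side, where 1.54% of features stood, and 0 on the lower side, where 1.64% stood. That member was Dnajc17, with 0.42, 0.11 and 1.37 in the females, against -0.021, -0.49 and -0.74 in the males, a difference of 1.05 (limma's adjusted p = 0.998). Only 1 of its 2 probes held the sexes apart. The other read -0.017, -0.147 and 1.526 in the females and 0.123, -0.027 and -0.68 in the males. The median difference over members was 0.0002, with 31 higher in females and 30 lower, where 49.9% and 50.1% of all features stood. All females were above all males for 2 members and below them for 3, where 4.74% and 4.85% of features stood.

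The other genes of these pathways were read from lists, and none of them passed at either age. Of the heat shock response and its cytosolic co-chaperones, 20 were on the array, 8 above and 12 below 0 in adults (median -0.015), and 7 above and 11 below in the 18 tested in embryos (median -0.026). Tcp1, the CCT subunit named apart from the others, averaged -0.24 ± 0.17 in adults, below 0 in all 6. Stip1, which links HSP70 to HSP90, averaged -0.34 ± 0.23 in embryos, below 0 in all 6 (adjusted p = 0.12), with a dye profile of -0.29. Of 10 mitochondrial co-chaperones and proteases, 6 were above 0 in adults (median 0.020), and 6 of the 9 tested in embryos (median 0.087), where Clpx, the unfoldase of the mitochondrial Clp protease, averaged 0.23 ± 0.13 with a dye profile of 0.41. Of 42 genes of the unfolded protein response and ER folding, 16 were above and 26 below 0 in adults (median -0.070), and 19 above and 23 below in embryos (median -0.015). Among them Os9, a lectin of ER-associated degradation, averaged -0.28 ± 0.29 in adults and was below 0 in all 6, and Atf6b, a relative of ATF6, averaged 0.22 ± 0.097, above 0 in all 6, with a dye profile of 0.49. In embryos Calu, a calcium-binding protein of the ER, averaged 0.16 ± 0.18 above 0 in all 6, with a dye profile of 0.62, and Ganab, a glucosidase of the calnexin cycle, averaged -0.67 ± 0.93, below 0 in the 5 embryos measured, with a dye profile of 0.84. Embryo 3 stood at -2.32, and without it the mean of Ganab was -0.26 over 4 embryos.

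Marker lists of cell types gave the following beside these values. In adults 0 markers passed, and the list medians were -0.34 for hepatocytes, -0.14 for endothelial and stellate cells, -0.052 for erythroid cells, -0.028 for exocrine pancreas, 0.074 for macrophages and leukocytes and 0.093 for cholangiocytes. Cdh5, a junction protein of endothelial cells, averaged -0.67 ± 0.30 in adults, below 0 in all 6. In embryos the medians were 0.22 for hepatocytes, 0.076 for endothelial and stellate cells, -0.067 for erythroid cells, -0.088 for macrophages and leukocytes, -0.25 for exocrine pancreas and -0.29 for cholangiocytes. Of the hepatocyte list 10 of 11 tested were above 0 in embryos, led by Serpina1b at 0.70 ± 0.24 (adjusted p = 0.050), with a dye profile of 0.61. Cela2a at -1.30 ± 0.46 and Cpa1 at -1.17 ± 0.43, enzymes of the exocrine pancreas, passed in embryos (adjusted p = 0.0467 each), and 7 of 10 markers of that tissue lay below 0. They did not all lean one way, since Clps at 0.35 ± 0.19 and Pnliprp2 at 0.31 ± 0.22, which encode proteins of fat digestion, were above 0 in all 6 embryos, while Ctrb1, a protease precursor, was below 0 in all 6 at -1.85 ± 0.83. In the cholangiocyte, erythroid and macrophage lists, the genes with the same sign in all 6 embryos were Cftr at -0.42 ± 0.32, Hba-a1 at -0.23 ± 0.12, Lcn2 at -0.36 ± 0.18 and Car1 at 0.62 ± 0.40. Whether these had a part in the fetal chaperone values was not tested.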

How the data were processed

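Liver RNA of single Afp mutants and of wild-type pools was compared on 2-colour cDNA arrays. The values are log2 ratios in 1 table deposited by the authors, whose correction and normalization by the authors no source used here gives. That the logarithm is to base 2 is an inference from how far the values reach. Names came from the platform annotation. Probes of a gene were averaged, and probes without a name were tested singly.

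Fetal values were read 11 rows down for probes up to 20000, because the fetal mean then correlated best with the adult dye profile (0.375 there and 0.0181 with no move). This held for 40 of 40 stretches of 500 probes but not for the 2 later ones, and it left 794 fetal rows unnamed. The Cy3 columns were read as mutant over pool like the others, with no change of sign. Dye swaps of 1 animal correlated at a median of -0.286 and opposite dyes of different animals at -0.263, against 0.290 and 0.343 within a dye. Dye swaps were averaged per animal.

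Ratios were fitted with limma 3.58.1 (R 4.3.3, lmFit and eBayes) over all features with values in 4 of 6 animals per age (2 per sex), and p-values were adjusted by the Benjamini-Hochberg method over all features with a threshold of 0.05. All tests were two-sided. The procedure was tested on simulated data. For the comparison of ages, the check on false calls covered only the case of equal spread at both ages. Members were assigned to compartments by hand. The members and the lists of other genes and markers were chosen with earlier results of these data known. Genes named with values were those past the threshold, the 2 highest and 2 lowest per compartment with 1 sign in all animals, the 3 highest and 3 lowest differences between ages, and Hspa5, Hsp90b1, Calr, Canx, Hyou1, Hspd1, Hspe1 and Hspa9. Other members named for an unadjusted p, an extreme value or a dye difference were chosen after their values were seen. The reading of protein ends was planned but not done, since no protein sequences were used here.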

Additional observations from a re-analysis of the deposited data

Results flagged for a closer look

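Within the 6 animals of an age, 1 animal lay far from the others by Dixon's criterion in 22 of 131 sets of values, made up of 125 sets of single members and 6 of compartment medians. All 22 were single members. Chance gives about 1 in 20, or 6.55 over these sets. Of the 22, 9 were in adults, 4 of them in animal 5, and 13 in embryos, 5 of them in embryo 1. Over all features, 13.2% held such an animal in adults and 12% in embryos.

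Among the adults, the chaperonin subunits set apart were Cct2 at -8.29 in animal 2, Cct6a at -0.36 in animal 1 and Cct6b at 0.63 in animal 5. The J proteins were Dnajc5 at -2.73 in animal 2, and Dnaja1 at -1.87, Dnaja3 at -1.94 and Dnajb12 at 0.97 in animal 5. Hspa14, an HSP70 protein bound to ribosomes, stood at -1.29 in animal 6, where its 3 probes read -2.69, -1.18 and 0.0015, and the small heat shock protein Hspb7 stood at 0.96 in the same animal. Animal 5 was the one measured on a single array.

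Among the embryos, embryo 1 stood apart for Dnajb2 at -0.60, Dnajb4 at -1.08, Dnajc11 at 0.89, Dnajc5b at 0.33 and Hspd1 at -1.08. Embryo 3 stood apart for Dnajc18 at 0.74, Dnajc19 at 0.96 and Hspb1 at 0.48. Embryo 5 did so for Dnajc7 at 0.31 and Hspb7 at -0.56, and embryo 6 for Dnajb13 at -0.90, Dnajc4 at -0.67 and Hsp90aa1 at -2.56.

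The gene mean of Dnajc17 was above 0 in all 3 female embryos and below 0 in all 3 male embryos, and the sexes differed by 1.05 (female minus male) at limma's unadjusted p of 0.0222 and adjusted p of 0.998. The sexes overlapped on 1 of its 2 probes.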

How the results depend on the processing

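No member passed the test in adults or embryos when any 1 animal was left out. In adults, 1 of 64 members passed with the mutant in Cy5 alone (Dnajc16), where 1106 of 16896 features did. With the Cy3 arrays turned in sign 6 of 64 members passed, where 1764 of 17039 features did. With the mutant in Cy3 alone 0 of 62 members passed, where 699 of 16695 features did. In embryos, 17 members passed with the adult dye profile subtracted, where 4930 of 16440 features did. That fit treats the profile as free of error. Among the 17, Cct2 at -2.43 and Dnajc5 at -0.59 had profiles that include the -16.835 values of the Cy3 array of animal 2. Dnajc16 then stood at -0.74 and Hspe1, whose profile rests on 2 animals, at -0.75, both opposite in sign to the means without it. Between ages, 0 to 6 members passed when 1 animal was left out. Without adult animal 1 it was 6 of 60 members, where 1224 of 16136 features passed. With the fetal names as deposited 3 of 63 members passed (Dnajb8, Dnajc8 and Hspb2), where 1579 of 16827 features did. The cause of these changes was not tested.

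The mitochondrial median of adults was -0.058 at probe level, -0.20 with the mutant in Cy3 alone and -0.0019 with the Cy3 arrays turned, and -0.197 to -0.058 when 1 animal was left out. With names as deposited and with the dye profile subtracted, the fetal medians were -0.023 and -0.022 for cytosolic and -0.051 and -0.085 for mitochondrial members. Leaving out 1 embryo gave -0.0036 to 0.054 for the cytosolic median. With names as deposited and with adult means over both orientations, the median differences between ages were -0.080 and -0.066 for cytosolic and -0.025 and -0.062 for mitochondrial members. The mitochondrial one ran from -0.33 to -0.039 when 1 animal was left out, the last without adult animal 5. Over all features, fetal calls numbered 26, against 2 to 5 without 1 embryo, 83 with values beyond 10 left out, 88 at probe level and 61 with a value in every animal. Calls between ages numbered 23, against 4 to 1224 without 1 animal, 42 with values beyond 10 left out, 36 with a value in every animal and 9 with adult means over both orientations. Calls between sexes numbered 2, against 0 to 4. Between ages, no paired analysis was possible because the animals differ. The replicate numbers in the sample titles count arrays for adults and embryos for the fetal samples, while the adult numbers used here count animals. Within adults, the Cy5 and Cy3 arrays of the 5 animals with both dyes form pairs, which the dye profile used.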
